A study of Mus musculus with 10 samples.

Results

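Peaks of H3K27me3 were examined at 35 genes of the BMP and TGF-β pathway that encode secreted proteins, of 55450 genes in the annotation, 21951 of them protein coding. The genes were taken by name, as family members, with earlier results of these data known. They fall into 26 ligands and 9 secreted antagonists. The ligands were Bmp2, Bmp3, Bmp4, Bmp5, Bmp6, Bmp7, Bmp8a, Bmp8b, Bmp10, Gdf1, Gdf3, Gdf5, Gdf6, Gdf7, Gdf10, Gdf11, Nodal, Lefty1, Lefty2, Inha, Inhba, Inhbb, Amh, Tgfb1, Tgfb2 and Tgfb3. The antagonists were Nog, Chrd, Chrdl2, Grem1, Fst, Fstl3, Bmper, Nbl1 and Cer1. Lefty1, Lefty2 and Inha belong to the ligand family by structure, although Lefty proteins and inhibin α oppose Nodal and activin.

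H3K27me3 is laid down by the Polycomb repressive complex PRC2 and marks genes that are held silent, many of them developmental regulators whose start sites are rich in CG dinucleotides. BMP and TGF-β family ligands are secreted dimers that bind paired serine/threonine kinase receptors, which phosphorylate Smad proteins. Antagonists such as noggin, chordin, gremlin and follistatin bind the ligands outside the cell and keep them from their receptors, and in the fetal liver and in the stem cell niche several of these ligands act on hematopoietic cells.

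The libraries were CUT&Tag for H3K27me3 (antibody C36B11), an assay in which Tn5 transposase is directed to the antibody so that sequenced fragments lie where the mark is. Long-term hematopoietic stem cells (LT-HSCs) were sorted as LSK CD48-CD150+ cells from fetal liver at E14.5. The comparison was between IκBα wild-type (WT) embryos and embryos of a targeted IκBα knockout (KO) line, with 3 libraries each. IκBα, encoded by Nfkbia, is an inhibitor of NF-κB. The knockout was in the whole embryo, so that the cells around the LT-HSCs lacked the protein as well. Replicates 1 and 2 of each genotype had 75 bp reads and replicate 3 had 50 bp reads, and 4 IκBα CUT&Tag samples of the series were not analysed here.

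The targeted gene Nfkbia (chr12:55489410-55492647) had a peak at its promoter or body in 0 of 6 libraries, so that these data give no check of the genotypes. The number of peaks was 4160, 6013 and 1047 in WT replicates 1 to 3 and 4904, 5157 and 2325 in KO replicates 1 to 3, and the median of the maximum signal per peak lay between 6 and 10 fragments. WT replicate 3 stands apart in peak number, and the main comparisons are therefore also given over the 4 libraries of 75 bp. The marks are an average over the sorted cells, so that a weaker mark in all cells and a mark in fewer cells cannot be told apart. Of the promoters of 17 genes of hematopoietic stem and progenitor cells, only that of Erg carried a peak in 4 or more libraries (5 libraries), while those of the hepatoblast genes Foxa2 and Krt8, 2 of 7 on that list, did so in 5 libraries each. None of 4 endothelial, 5 erythroid and 4 macrophage marker promoters was marked in 4 or more libraries. Among all protein coding genes 9.78% were. H3K27me3 reads silence and not expression, so these lists do not measure the purity of the sort.

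Of the 35 listed genes, 22 carried the mark at the promoter in at least 4 libraries, a larger share of the listed antagonists than of the listed ligands. Promoters ran from 5 kb before to 100 bp after each annotated transcription start site (TSS), and one was called marked when a deposited peak overlapped it by at least 1 bp. In at least 4 of the 6 libraries this held for 22 of the 35 genes, 14 of 26 ligands and 8 of 9 antagonists, against 9.78% of protein coding genes. In all 6 libraries it held for 10 genes, the ligands Bmp4, Bmp6, Bmp7, Gdf6 and Gdf7 and the antagonists Nog, Chrd, Chrdl2, Grem1 and Bmper, against 2.66% of protein coding genes. In all 4 libraries of 75 bp it held for 19 genes, 12 ligands and 7 antagonists, against 8.54% of protein coding genes. When each library was reduced to its 1047 peaks of highest total signal, the number of the smallest library, 8 genes were left in at least 4 libraries, 5 ligands and 3 antagonists, against 3.15% of protein coding genes.

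**Figure D1:**
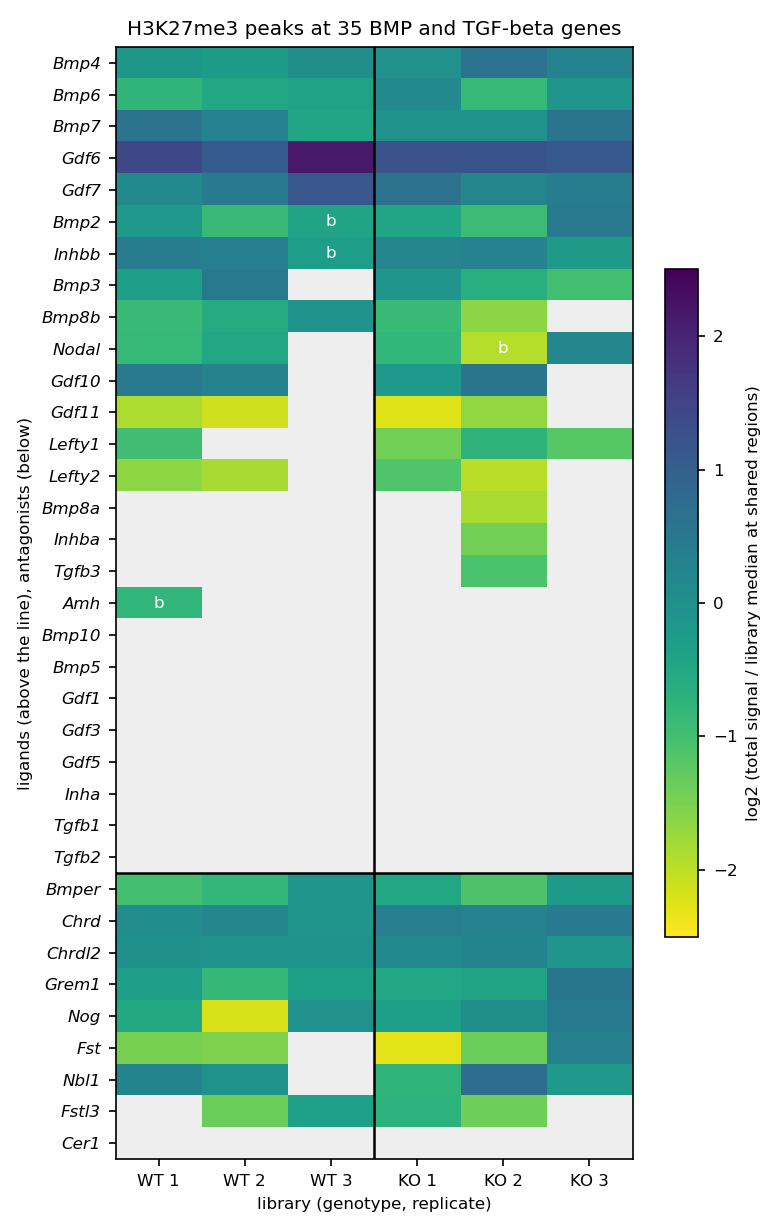
Peaks at the promoter or body of the 35 genes in each library. Rows are genes, with the 26 ligands above the line and the 9 antagonists below, and columns are the 3 WT and 3 KO libraries. Colour is the log2 of the total signal over the median total signal of the library at 718 regions called in all 6 libraries, grey is no peak, and b marks a peak in the gene body alone. The 12 genes with a peak in every library fill their rows, and 9 genes have no peak in any library.

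The number of ligand promoters with a peak, of 26, was 14, 13 and 6 in WT replicates 1 to 3 and 14, 16 and 10 in KO replicates 1 to 3. The number of antagonist promoters, of 9, was 7, 8 and 6 for WT replicates and 8, 8 and 7 for KO replicates. The percentage was higher for antagonists than for ligands in each of the 6 libraries, and the ligand percentage minus the antagonist percentage was -34.7 ± 7.59 points (SD, n = 6 libraries), with a range from -43.6 to -23.9. Since the genes were chosen by hand and are not replicates, no test was made of this difference. With Lefty1, Lefty2 and Inha counted as antagonists it was -25.1 points, and with 1047 peaks in each library it was -22.5 points. The difference depended on which genes were listed. With 7 other family ligands and 9 other secreted antagonists added, none of them marked in at least 4 libraries, 14 of 33 ligands and 8 of 18 antagonists were marked in at least 4. The difference was then -5.72 ± 6.98 points (SD, n = 6 libraries), and in KO replicate 2 the ligands were the higher, with 16 of 33 against 8 of 18.

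**Figure D2:**
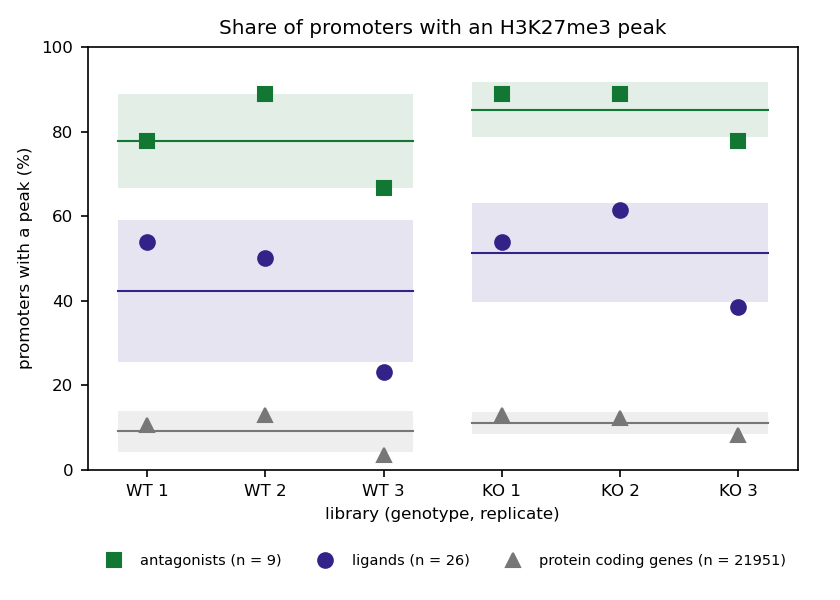
Percentage of promoters with an H3K27me3 peak in each library, for the 9 antagonists, the 26 ligands and all 21951 protein coding genes. Points are libraries, and lines and bands are the mean and SD of 3 libraries per genotype. For these lists antagonists are above ligands and ligands above protein coding genes in every library, and both replicate 3 libraries are the lowest of their genotype for ligands.

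The start sites of the marked genes were rich in CG dinucleotides, the sequence feature on which PRC2 targets of this kind are known to lie. CG was counted on the forward strand (it reads the same on the reverse strand) in 1001 bases centred on the TSS, taking the TSS with most CG of each gene. All 35 genes had a value. The median was 88.5 CG (range 38 to 114) in the 22 genes marked in at least 4 libraries, 48 in the 3 genes marked in 1 library and 24.5 (range 9 to 77) in the 10 genes marked in none, and it was 50 over 21906 protein coding genes. Of the genes with 50 CG or more, 8 of 8 antagonists and 11 of 14 ligands were marked in at least 4 libraries, against 15.1% of 10956 protein coding genes of that class. Of the genes with 20 to 49 CG, 3 of 9 were marked, against 9.42% of 4671 protein coding genes. Of those under 20 CG, Bmp5, Inha, Amh and Cer1, 0 of 4 were marked, against 0.637% of 6279 protein coding genes. The antagonists thus held more CG-rich starts (8 of 9) than the ligands (14 of 26), and the part of this in the difference between the groups was not tested.

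The 250 bases upstream of the RefSeq start are shown for 9 genes, to set marked promoters beside unmarked ones. The table of promoters held 22 of the 35 genes, and sequences are those of RefSeq on GRCm38.p6, printed 5′ to 3′ on the strand of the gene with every CG in capitals. None of the stretches overlaps an annotated exon. Letters searched were CG alone, and 93.3% of 16521 protein coding promoters of this length hold at least 1, with a median of 11. Chordin (Chrd, chr16:20732877-20733126, + strand, 28 CG), gremlin 1 (Grem1, chr2:113758649-113758898, - strand, 24 CG) and Gdf7 (chr12:8301955-8302204, - strand, 20 CG) had a promoter peak in all 6 libraries, and the stretch lay wholly inside a peak in 5, 6 and 6 of them. Bmp4 (chr14:46390670-46390919, - strand, 11 CG) was also called in all 6, with the stretch inside a peak in 5, and its CG count was no higher than the median of the promoters. At least 28 CG are found in 11.3% of the promoters, at least 24 in 17.7%, at least 20 in 26.9% and at least 11 in 52.4%.
Chrd: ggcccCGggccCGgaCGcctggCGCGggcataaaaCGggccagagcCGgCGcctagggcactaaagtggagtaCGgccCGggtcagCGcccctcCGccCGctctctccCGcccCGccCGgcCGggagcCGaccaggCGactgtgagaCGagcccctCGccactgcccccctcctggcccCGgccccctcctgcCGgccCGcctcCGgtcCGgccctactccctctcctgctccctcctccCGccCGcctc
Grem1: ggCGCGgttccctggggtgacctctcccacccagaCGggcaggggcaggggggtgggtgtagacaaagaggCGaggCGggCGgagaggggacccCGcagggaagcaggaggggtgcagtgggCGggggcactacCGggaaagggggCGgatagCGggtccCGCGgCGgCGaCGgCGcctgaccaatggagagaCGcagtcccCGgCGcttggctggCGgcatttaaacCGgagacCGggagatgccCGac
Gdf7: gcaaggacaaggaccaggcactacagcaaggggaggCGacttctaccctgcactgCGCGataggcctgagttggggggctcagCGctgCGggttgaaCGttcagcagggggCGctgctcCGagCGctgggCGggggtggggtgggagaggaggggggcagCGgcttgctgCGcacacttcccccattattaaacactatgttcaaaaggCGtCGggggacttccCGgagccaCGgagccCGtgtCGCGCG
Bmp4: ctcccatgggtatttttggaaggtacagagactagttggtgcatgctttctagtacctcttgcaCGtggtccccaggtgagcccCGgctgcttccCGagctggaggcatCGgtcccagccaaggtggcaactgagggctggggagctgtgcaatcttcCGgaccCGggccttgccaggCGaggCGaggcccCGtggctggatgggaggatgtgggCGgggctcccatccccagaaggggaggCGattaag

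The paralogs Bmp8b (chr4:123104911-123105160, + strand, 17 CG) and Bmp8a (chr4:123343253-123343502, - strand, 12 CG) lie 181 kb apart and differed in their calls. The stretch of Bmp8b lay inside a peak in 5 libraries and that of Bmp8a in 0, with 1 library whose peak reached into it. At least 17 CG are found in 35.5% of the promoters and at least 12 in 49.7%.
Bmp8b: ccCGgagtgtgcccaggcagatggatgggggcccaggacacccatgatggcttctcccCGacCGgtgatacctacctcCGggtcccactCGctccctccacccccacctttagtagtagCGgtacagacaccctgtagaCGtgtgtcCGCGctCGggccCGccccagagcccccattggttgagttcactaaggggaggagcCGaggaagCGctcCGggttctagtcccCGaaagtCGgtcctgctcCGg
Bmp8a: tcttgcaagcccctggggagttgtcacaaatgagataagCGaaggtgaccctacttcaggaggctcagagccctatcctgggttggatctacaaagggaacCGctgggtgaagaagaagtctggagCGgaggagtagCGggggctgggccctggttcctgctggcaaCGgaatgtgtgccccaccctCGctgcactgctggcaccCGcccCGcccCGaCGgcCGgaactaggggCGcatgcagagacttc

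Unmarked promoters were of both kinds. Tgfb1 (chr7:25686752-25687001, + strand, 21 CG) is as rich in CG as the marked genes and had no peak in any library. Cer1 (chr4:82885152-82885401, - strand, 5 CG) and Bmp10 (chr6:87428744-87428993, + strand, 3 CG) are poor in CG and had none either. At least 21 CG are found in 24.4% of the promoters, at least 5 in 69.5% and at least 3 in 79.1%.
Tgfb1: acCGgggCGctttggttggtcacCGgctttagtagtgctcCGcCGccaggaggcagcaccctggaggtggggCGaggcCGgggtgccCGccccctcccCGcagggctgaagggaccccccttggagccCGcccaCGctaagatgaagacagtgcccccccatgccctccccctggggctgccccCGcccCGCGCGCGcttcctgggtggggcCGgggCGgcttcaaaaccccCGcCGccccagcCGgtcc
Cer1: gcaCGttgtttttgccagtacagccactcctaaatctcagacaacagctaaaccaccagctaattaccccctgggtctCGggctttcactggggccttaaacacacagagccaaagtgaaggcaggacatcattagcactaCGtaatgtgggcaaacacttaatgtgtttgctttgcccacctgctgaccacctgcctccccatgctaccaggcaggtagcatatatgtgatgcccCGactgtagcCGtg
Bmp10: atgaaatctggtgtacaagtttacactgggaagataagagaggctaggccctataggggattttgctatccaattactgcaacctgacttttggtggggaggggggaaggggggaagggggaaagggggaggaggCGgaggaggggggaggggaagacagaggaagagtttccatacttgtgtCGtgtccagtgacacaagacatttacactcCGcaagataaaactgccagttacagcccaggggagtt

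**Figure D3:**
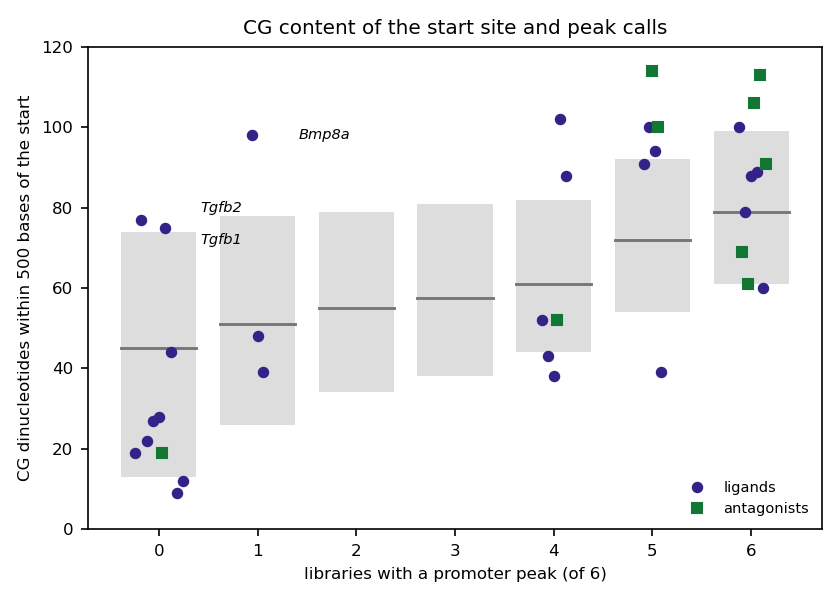
CG dinucleotides within 500 bases of the TSS against the number of libraries with a promoter peak. Points are the 35 genes, and grey boxes and lines are the quartiles and median of protein coding genes with that number of libraries. Tgfb1 and Tgfb2, with 75 and 77 CG, are marked in 0 libraries and Bmp8a, with 98 CG, in 1, apart from the other genes with 50 CG or more, which are marked in at least 4.

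Among the BMP ligands, Bmp4, Bmp6 and Bmp7 were marked in every library. Bmp4 (chr14:46383520-46390669, - strand), a ligand of early mesoderm and of the stem cell niche, had a total signal of 23997, 29495 and 4753 (WT) against 35710, 44794 and 19045 (KO), with maximum signal of 9, 16 and 6 (WT) against 15, 10 and 11 (KO) fragments. Values are given here and below for replicates 1, 2 and 3 of each genotype. Total signal is the sum of fragment coverage over the peaks of a gene and was not scaled to depth by the authors. Relative to the median of each library at the 718 shared regions, the values at Bmp4 were 0.901, 0.861 and 1.02 (WT) against 0.975, 1.51 and 1.19 (KO), and the 2 genotypes overlapped, with KO above WT within every same-numbered pair. In KO replicate 2 its peak ran on to the neighbouring start of Gm15217.

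Bmp6 (chr13:38345107-38500302, + strand), the ligand through which the liver senses iron, had a total signal of 15591, 24737 and 3557 (WT) against 39933, 16534 and 14877 (KO) and maximum signal of 10, 11 and 4 (WT) against 17, 12 and 10 (KO) fragments. Relative to the library median these were 0.586, 0.722 and 0.762 (WT) against 1.09, 0.557 and 0.927 (KO), with KO replicate 1 the highest and KO replicate 2 the lowest of all 6 libraries. Bmp7 (chr2:172868012-172940321, - strand), a ligand of kidney and eye development, had 40480, 41965 and 3455 (WT) against 35347, 28458 and 23796 (KO) total signal and 11, 13 and 5 (WT) against 11, 9 and 11 (KO) fragments at the maximum. Its relative values were 1.52, 1.22 and 0.740 (WT) against 0.966, 0.959 and 1.48 (KO), and the genotypes overlapped at both genes.

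Bmp2 (chr2:133552159-133562885, + strand), the closest relative of Bmp4, had its promoter called in 2 libraries of WT and 3 of KO and its gene body in all 6. Total signal was 23294, 18671 and 3505 (WT) against 26539, 15659 and 22275 (KO) and maximum signal 13, 11 and 6 (WT) against 13, 9 and 13 (KO) fragments. Relative to the library median, the values were 0.875, 0.545 and 0.751 (WT) against 0.725, 0.528 and 1.39 (KO). In WT replicate 3 the peak lay downstream of the TSS, 1.28 kb wide, so that the promoter was not called there. Its relative signal was inside the range of the others. However, the weakest peak called in that library had a total signal of 3344, so a much lower value could not have been seen. Bmp3, an atypical BMP that opposes the others in bone, was marked in 2 WT and 3 KO libraries, with relative signal from 0.504 to 1.39 and no peak in WT replicate 3.

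The pair Bmp8b and Bmp8a had unequal calls. The promoter of Bmp8b was called in 3 libraries of WT and 2 of KO, with relative signal from 0.324 to 0.972 and no peak in KO replicate 3. Bmp8a had a peak in KO replicate 2 alone, with relative signal of 0.273. Of the 75-base words in the promoter windows of Bmp8b, 13.0% also occur at the Bmp8a locus, and 18.8% of the 50-base words do, whereas 0% of the words of the Bmp8a promoter occur at Bmp8b. Reads mapped to several places were removed by the authors, and the Bmp8a promoter shared no such word with Bmp8b. Bmp5 and Bmp10, ligands of the skeleton and of the heart, had 0 peaks at promoter and body.

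The growth and differentiation factors ranged from the highest signal among the 35 genes, at Gdf6, to no peak at Gdf1, Gdf3 and Gdf5. Gdf6 (chr4:9844372-9862345, + strand), a ligand of joint and eye formation, had a total signal of 70650, 70594 and 20825 (WT) against 85413, 68405 and 35143 (KO) and maximum signal of 12, 14 and 10 (WT) against 14, 11 and 15 (KO) fragments. Relative to the library median the values were 2.65, 2.06 and 4.46 (WT) against 2.33, 2.31 and 2.19 (KO), all above those of any other member in the same library. Its peaks, of which there were 1 to 3 per library, covered 17.1 to 19.3 kb in the 75 bp libraries and reached from upstream of the TSS across the gene. Mean coverage over these peaks, 2.79 to 4.83 fragments per base, was inside the range of the other members in each library, whereas the covered length was the greatest of the 35 genes in each library.

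Gdf7 (chr12:8297918-8301954, - strand), which patterns the dorsal spinal cord, had a total signal of 29176, 45810 and 10299 (WT) against 56102, 34421 and 21251 (KO) and 12, 11 and 6 (WT) against 12, 9 and 12 (KO) fragments at the maximum. Its relative values were 1.10, 1.34 and 2.21 (WT) against 1.53, 1.16 and 1.32 (KO), above 1 in every library. Gdf10 was marked in the 4 libraries of 75 bp, 2 WT and 2 KO, with relative signal from 0.879 to 1.50, and in neither library of 50 bp.

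Gdf11 was called in the same 4 libraries by weak peaks, with relative signal from 0.210 to 0.309, that lay upstream and covered neither its TSS nor an exon. In KO replicate 2 the peak also reached the promoter of Cd63. Gdf1, Gdf3 and Gdf5 had 0 peaks at promoter and body in 6 libraries, and their starts held 44, 28 and 22 CG.

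Nodal and its inhibitors Lefty1 and Lefty2, which set the left-right axis, were each without a promoter peak in some libraries. Nodal had its promoter called in 2 libraries of each genotype and its body in 2 of WT and 3 of KO, with relative signal from 0.262 to 1.15. Lefty1 (chr1:180935022-180938400, + strand) was the only one of the 35 whose promoter calls differed by at least 2 libraries, with 1 WT and 3 KO libraries. At least 2 more KO than WT libraries were called for 1.06% of protein coding genes, and at least 2 more WT than KO libraries, which held for 0 of 35, for 0.228%. A gene with no promoter peak in any library could not differ, which held for 84.1% of protein coding genes and 10 of the 35. The total signal of Lefty1 was 13586 in WT replicate 1 and 13454, 17604 and 7024 in KO replicates 1 to 3. Its maximum signal was 11 fragments in the WT library and 9, 11 and 8 in the KO libraries. Relative to the library median these were 0.510 in WT and 0.368, 0.593 and 0.438 in KO, so that where a WT peak was called it was inside the KO range. Lefty2, 35.9 kb away, was marked in the 4 libraries of 75 bp, with relative signal from 0.254 to 0.458. The pair shares 0.742% (Lefty1) and 0.800% (Lefty2) of the 75-base words of its promoter windows.

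Of the activin and inhibin subunits only Inhbb had a peak at its promoter or body in every library. Inhbb (chr1:119415465-119422248, - strand), the activin βB subunit, had its promoter called in 2 libraries of WT and 3 of KO and its body in all 6, with total signal of 34607, 43130 and 3775 (WT) against 42597, 35909 and 13649 (KO) and maximum signal of 13, 10 and 4 (WT) against 13, 12 and 12 (KO) fragments. Its relative values were 1.30, 1.26 and 0.808 (WT) against 1.16, 1.21 and 0.850 (KO). In the 75 bp libraries the mean was 1.23 ± 0.0591 (SD, n = 4), and both 50 bp libraries were lower. Inhba, the activin βA subunit, had a peak in KO replicate 2 alone, Inha had none, and Amh, the anti-Müllerian hormone, had none at its promoter and 1 in its body in WT replicate 1.

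The TGF-β ligands proper had few calls. Tgfb1 and Tgfb2 had 0 peaks at promoter and body in 6 libraries, and Tgfb3 had a peak in KO replicate 2 alone, which also covered the start of Ift43. TGF-β1, a product of many blood cells, has a known part in holding hematopoietic stem cells quiescent. With 75 and 77 CG within 500 bases of the TSS, Tgfb1 and Tgfb2 lie among the CG-rich genes.

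Of the antagonists of BMPs, Nog, Chrd, Chrdl2, Grem1 and Bmper were marked in all 6 libraries. Nog (chr11:89300638-89302332, - strand), encoding noggin, had a total signal of 18232, 7465 and 4545 (WT) against 29198, 29704 and 21813 (KO) and maximum signal of 15, 6 and 5 (WT) against 12, 10 and 12 (KO) fragments. Relative to the library median the values were 0.685, 0.218 and 0.973 (WT) against 0.798, 1.001 and 1.36 (KO). WT replicate 2 was the lowest, and the ranges of the genotypes overlapped, since KO replicate 1 was below WT replicate 3, while KO was above WT within each pair of equal number.

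Chrd (chr16:20733127-20742384, + strand), encoding chordin, had a total signal of 27595, 38734 and 4313 (WT) against 46939, 36069 and 21369 (KO) and 9, 11 and 5 (WT) against 17, 13 and 12 (KO) fragments at the maximum. Its relative values were 1.04, 1.13 and 0.924 (WT) against 1.28, 1.22 and 1.33 (KO), and here each KO library was above each WT library (peaks at the promoter or body of the gene). The peak also covered a start of Thpo (chr16:20724454-20734511, - strand) in 6 of 6 libraries. Thpo encodes thrombopoietin, a cytokine of megakaryocytes and stem cells, and its nearest start is 1008 bp from one of Chrd, so that the mark of the one promoter and of the other cannot be told apart in these peaks.

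Chrdl2 (chr7:100006172-100034728, + strand), chordin-like 2, had a total signal of 26599, 33126 and 4439 (WT) against 39236, 35001 and 14862 (KO) and maximum signal of 10, 10 and 5 (WT) against 15, 11 and 9 (KO) fragments. Its relative values were 0.999, 0.967 and 0.951 (WT) against 1.07, 1.18 and 0.926 (KO). They were the most even over the 6 libraries of the 12 genes with a promoter or body peak in every library. In WT replicate 3, however, the peak of Chrdl2 lay upstream of the TSS. Grem1 (chr2:113746164-113758646, - strand), encoding gremlin 1, had 21835, 19390 and 3694 (WT) against 26133, 22105 and 23619 (KO) total signal and 13, 10 and 4 (WT) against 13, 13 and 14 (KO) fragments at the maximum. Its relative values were 0.820, 0.566 and 0.791 (WT) against 0.714, 0.745 and 1.47 (KO), with KO replicate 3 alone above 1. Its peaks covered 4.19 to 4.22 kb in 4 of the 6 libraries, 3.26 kb in KO replicate 2 and 1.60 kb in WT replicate 3.

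Bmper (chr9:23223076-23485200, + strand), which binds BMPs in endothelium and modulates them, had a total signal of 13246, 19571 and 4309 (WT) against 26275, 13847 and 13820 (KO) and 10, 10 and 8 (WT) against 11, 11 and 14 (KO) fragments at the maximum. Its relative values were 0.497, 0.571 and 0.923 (WT) against 0.718, 0.467 and 0.861 (KO), below 1 in every library. Nbl1, the DAN antagonist, was marked in 2 WT and 3 KO libraries, with relative signal from 0.586 to 1.65. In KO replicate 2 one of its peaks ran on to the promoter of Htr6.

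The antagonists of activin were each without a promoter peak in some libraries. Fst, encoding follistatin, was marked in 2 WT and 3 KO libraries, with relative signal from 0.205 to 0.387 in the 75 bp libraries and 1.26 in KO replicate 3. Fstl3 was marked in 2 WT and 2 KO libraries, WT replicates 2 and 3 and KO replicates 1 and 2, with relative signal from 0.378 to 0.779. Cer1, the antagonist of Nodal and BMP of anterior endoderm, had 0 peaks at promoter and body.

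**Figure D4:**
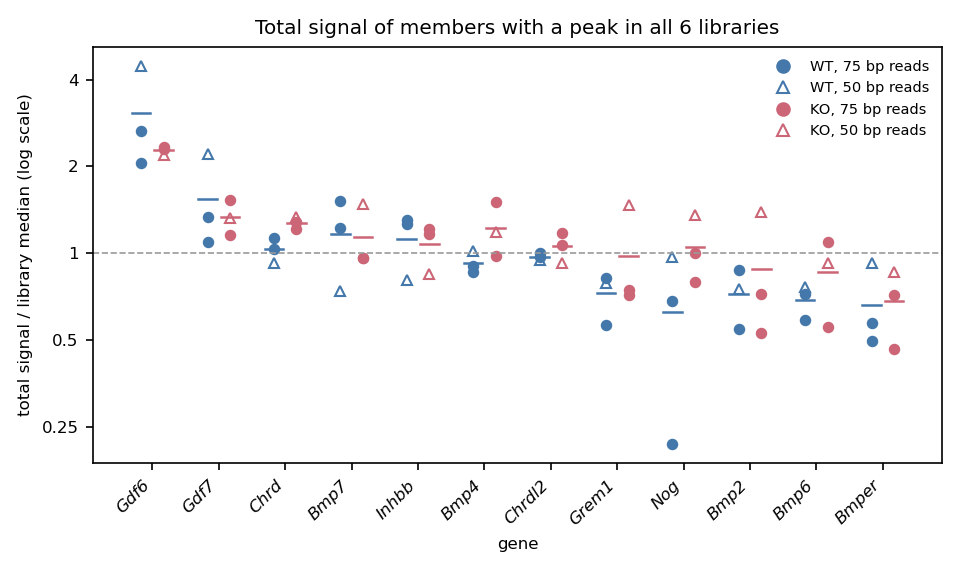
Total signal of the 12 genes with a peak in all 6 libraries, relative to the median of each library at 718 shared regions (log scale). Filled circles are libraries of 75 bp, open triangles libraries of 50 bp, and bars the mean of 3 libraries per genotype. Gdf6 is above 2 in every library, and of these values per gene those at Chrd alone lie wholly higher in KO than in WT.

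The genotypes were compared to ask whether loss of IκBα changes the mark at these genes. The percentage of ligand promoters with a peak was 42.3 ± 16.8 in WT and 51.3 ± 11.8 in KO (SD, n = 3 libraries each), a difference of 8.97 points, and in the 75 bp libraries the difference was 5.77 points. Without WT replicate 3 it was -0.641 points, with 1047 peaks in each library 0, with peaks above the library median 3.85 and with protein coding transcripts alone 14.1. For antagonists the percentage was 77.8 ± 11.1 in WT and 85.2 ± 6.42 in KO, a difference of 7.41 points, and 5.56 points in the 75 bp libraries. Without WT replicate 3 it was 1.85 points, without WT replicate 2 it was 13.0, with protein coding transcripts alone 3.70, and with peaks above the library median 18.5. Over all 6 libraries and all peaks, both differences were smaller than the SD between libraries of WT. Taken between libraries of the same number, which were treated as pairs, the ligand difference was 0, 11.54 and 15.4 points (mean 8.97 ± 8.01, SD, n = 3 pairs) and the antagonist difference 11.1, 0 and 11.1 points (mean 7.41 ± 6.42). Each was above 0 in 2 of 3 pairs and below it in none. No test was made, since an exact permutation test over 3 pairs, two-sided, cannot give a p below 0.25. Over all protein coding genes the percentage was 9.04 ± 4.93 in WT and 11.1 ± 2.60 in KO, in the same direction, and the paired differences were 2.29, -0.743 and 4.61 points.

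Only Bmp8b had a promoter peak in all 3 WT libraries and not in all 3 KO libraries, 1 of 35 genes against 0.36% of protein coding genes. The reverse held for 6 of 35, Bmp2, Bmp3, Lefty1, Inhbb, Fst and Nbl1, against 4.51% of protein coding genes. Of these 6, 5 lacked only the call in WT replicate 3, and Lefty1 lacked those in WT replicates 2 and 3. Among the 989 protein coding genes of this kind, 82.5% lacked only WT replicate 3. Without WT replicate 3 the count was 1 gene, Lefty1, with 5 genes the other way round, Bmp8b, Gdf10, Gdf11, Lefty2 and Nodal, of which Nodal lacked the call in KO replicate 2 and the other 4 that in KO replicate 3. In the 75 bp libraries 2 genes were marked in both KO libraries and not both WT libraries, Lefty1 and Fstl3, and 1 gene, Nodal, the other way round. The share of protein coding genes was not counted for either of these smaller sets of libraries. Only a gene with a promoter peak can differ between the genotypes in this way. Of the 35 genes 22 were marked in at least 4 libraries, against 9.78% of protein coding genes. The shares above are thus not taken over genes alike in this respect.

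Total signal was then tested with limma at the 718 regions with a peak in every library. No region passed an adjusted p of 0.05 (0%), and 8 had an unadjusted p below it (1.11%). Regions of 12 members entered the fit, 8 of them higher and 4 lower in KO. The change at Nog was the largest, 0.55 ± 0.32 on the log2 scale (SE, KO minus WT, adjusted p = 0.993 in limma), followed by Bmp6 with 0.49 ± 0.37, Grem1 with 0.36 ± 0.38, Gdf6 with -0.35 ± 0.36 and Chrd with 0.31 ± 0.30. Without KO replicate 3 the value at Grem1 was 0.0444 ± 0.35, and without WT replicate 3 that at Gdf6 was -0.0284 ± 0.31. At Bmp4 it was 0.21 ± 0.30, at Bmp2 0.19 ± 0.41 and at Chrdl2 0.12 ± 0.30. Bmper, Bmp7, Inhbb and Gdf7 lay between -0.15 and 0.05 with SE of 0.34 to 0.37. Every KO library was above every WT library at 3 of the 12 regions, Bmp4, Nog and Chrd, against 2.23% of the 718 regions, and at 0 of 12 every KO library was below every WT library, against 4.46%. Between libraries of the same number KO was above WT in all 3 pairs at 4 of 12 regions, Bmp4, Bmp6, Nog and Chrd, against 10.2%, and below WT in all 3 pairs at 0 of 12, against 16.0%. With the replicate block the SE at Nog was 0.28 and the adjusted p at these 4 genes 0.907 to 0.919 in limma. These are merged regions, which can take in neighbouring peaks or leave out a separate peak of the gene. They so differ at Bmp4, Nog and Bmp6 from the values per gene above. At Bmp6 the region left out a second peak of WT replicate 2. Per gene, KO replicate 2 (0.557) was below WT replicate 2 (0.722) there, so KO was not above WT in all 3 pairs. The fit of the 75 bp libraries below used the same region at Bmp6. When maximum signal was used in place of total signal, the difference at Bmp4 was -0.02, at Nog -0.02 and at Chrd 0.48 ± 0.21 on the log2 scale. With mean signal per base it was 0.41 ± 0.16 at Chrd and 0.45 ± 0.17 at Grem1. Chrd was 1 of 12 regions with an unadjusted p below 0.05 for maximum signal, and Chrd and Grem1 were 2 of 27 for mean signal per base, with adjusted p of 0.998 and 0.988 in limma. For total signal 0 of the 12 member regions were among the 8. None of the 12 passed the threshold, and the adjusted p was 0.993 at 11 genes and 0.999 at Bmp7. The median SE over all regions was 0.37, from the spread between 3 libraries of each genotype.

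In the 4 libraries of 75 bp, 2558 regions could be tested, none passed the adjusted threshold and 119 had an unadjusted p below 0.05 (4.65%). Of the 19 member regions in that fit, 0 were among the 119. Nog differed by 0.60 ± 0.32 and Bmp6 by 0.60 ± 0.42 on the log2 scale, while Nodal differed by -0.69 ± 0.45, Bmp8b by -0.49 ± 0.38, Bmp7 by -0.49 ± 0.32 and Bmp3 by -0.45 ± 0.39, with adjusted p of 0.998 to 0.999 in limma. Gdf6, lower in KO over 6 libraries, differed by 0.00 ± 0.32. The direction changed between both fits for Bmp2, Gdf6 and Gdf7.

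**Figure D5:**
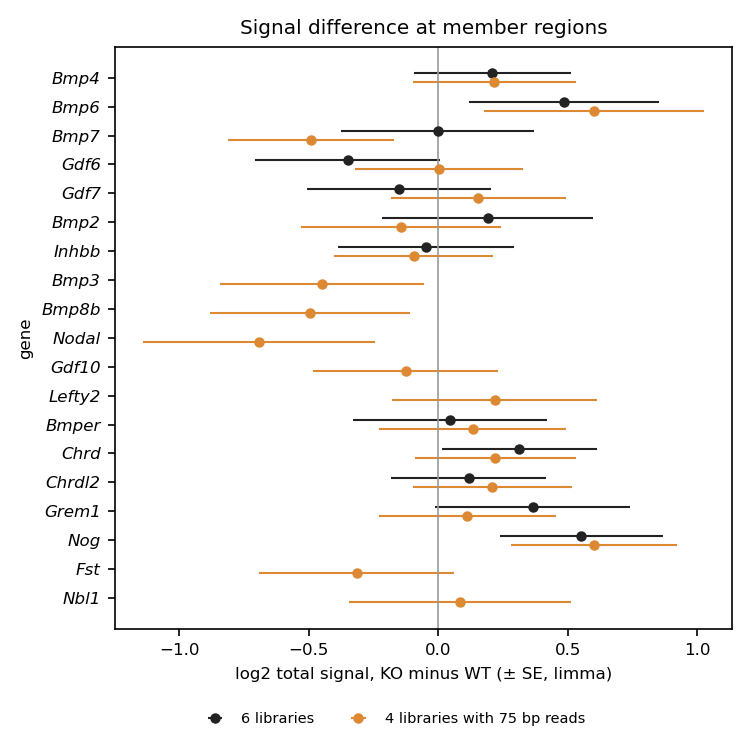
Difference in log2 total signal, KO minus WT, at member regions, with bars of 1 SE from limma. Black is the fit of 6 libraries (12 regions) and orange the fit of 4 libraries with 75 bp reads (19 regions). The estimates lie between -0.69 and 0.60, and most bars reach or cross 0.

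Fewer promoters were marked in the rest of the pathway, on lists chosen by hand and without a test. Promoters marked in at least 4 libraries were 1 of 14 receptors, 1 of 5 co-receptors, 1 of 8 Smads, 2 of 7 target genes and 4 of 10 genes of latency and processing, against 9.78% of protein coding genes. The receptor was Bmpr1a, a type I BMP receptor, the co-receptor Rgma and the Smad Smad9, each in 2 WT and 3 KO libraries. Ltbp3 and Ltbp4, which tether latent TGF-β to the matrix, were marked in all 6 libraries, and Tll2, a tolloid-like metalloprotease, in 2 WT and 3 KO libraries. Calls in at least 2 more KO than WT libraries were found for 2 of 7 target genes, 1 of 10 genes of latency and processing and 1 of 5 co-receptors, and for 0 of 14 receptors and 0 of 8 Smads, against 1.06% of protein coding genes. Only a gene with a promoter peak in at least 1 library could differ. Such a peak was found for 3 of 7 target genes, 6 of 10 latency and processing genes and 4 of 5 co-receptors. Among protein coding genes it was found for 15.9%. Id2, Id4 and Ltbp2 had 1 WT and 3 KO libraries and Rgmb 0 WT and 2 KO libraries.

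Related genes outside the 35 were counted in the same way. None of the 7 other family ligands (Bmp15, Gdf2, Gdf9, Gdf15, Mstn, Inhbc and Inhbe) had a promoter peak in any library. Of 9 other secreted antagonists, 0 had a promoter marked in at least 4 libraries and 2 in at least 1. Among protein coding genes the shares were 9.78% in at least 4 libraries and 15.9% in at least 1. Sost, named after its values were seen and encoding the antagonist sclerostin, had a promoter call in 1 library and a peak in its gene body in 5.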

How the data were processed

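CUT&Tag peak lists for H3K27me3 from 3 WT and 3 KO libraries of E14.5 fetal liver LT-HSCs were used, grouped and numbered by the sample labels. The authors trimmed reads with Trim Galore (0.6.6), aligned them to GRCm38 with Bowtie2 (2.4.4), removed multi-mapped, poorly mapped and duplicate reads, and called peaks in each library with SEACR (1.3), stringent, without IgG, keeping the top 0.5% of blocks. The deposited values are signal: the summed fragment coverage of a peak and its maximum, not scaled to depth. Because the rule is relative to each library, peak number and the weakest peak called can change with depth and background. Read totals were not used here, so depth is given only through the peaks, and no interval on counting error could be set. The paper lists fewer uniquely mapped reads for replicate 3 of both genotypes than for any other of these libraries. Lower depth and 50 bp reads thus fall on the same libraries and cannot be told apart.

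Peaks were overlapped with GENCODE M21 genes in Python (3.11.15, numpy 2.4.6, pandas 2.3.3). Relative signal is total signal over the median of that library at the 718 regions called in all 6 libraries. At these regions, log2 total signal was centred on the median of each library and tested in limma (3.58.1, R 4.3.3) with Benjamini-Hochberg adjustment over all regions at 0.05, after the fit had been tested on simulated data. The labels do not say that replicates are separate litters. For these libraries the paper gives 2 independent experiments in a figure legend and 3 independent replicates in its reporting summary. The 3 libraries of a genotype may thus not be 3 independent experiments, and p-values measure the spread between these libraries. Across regions, the deviations of a WT library from its group mean correlated with those of the KO library of the same number (r of 0.277, 0.315 and 0.479 for replicates 1, 2 and 3). Every such r was over 0.1, so the numbers were treated as pairing them in a fit with a replicate block. Between unlike numbers r was 0.270 for WT replicate 2 with KO replicate 1, 0.116 for WT replicate 1 with KO replicate 2, and -0.441 to -0.281 where only one of both was replicate 3, of 50 bp reads. The cut of 0.1 thus set replicate 3 apart. It did not tell replicates 1 and 2 apart, so their pairing rests on the numbers in the labels. Every member was to be named, with signal per library where a peak was called in all 6 libraries or promoter calls differed by at least 2 libraries. Genes of other lists were to be named when called in at least 5 libraries or differing by at least 2. The members and lists were chosen with earlier results of these data known. Alternatives changed the promoter window, the overlap, the number of peaks, the roles of Lefty1, Lefty2 and Inha, the scaling, the measure of signal and the libraries. The counts of genes marked in at least 4 libraries under other windows, peak numbers and read lengths, the group difference with 16 further family genes, the differences within pairs, and member differences at regions called in at least 3 libraries (a library without a peak set to its smallest total signal), were added after the data were seen.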

Additional observations from a re-analysis of the deposited data

How the results depend on the processing

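No region passed the limma threshold under any of the 12 alternatives, which included other scalings, other measures of signal, regions called in at least 3 libraries, the 75 bp libraries alone and each library left out. With the replicate block, that is with same-numbered WT and KO libraries paired, 0 regions passed, 24 had an unadjusted p below 0.05, and no call changed; 0 of the 12 member regions were among the 24. At the 12 member regions, 110 of 144 alternative values kept the direction and 34 did not, and only Chrd and Grem1 kept it throughout, Grem1 with 0.0444 without KO replicate 3. Scaling by summed signal shifts every region alike, by -0.24 on the log2 scale (median of all regions -0.26), and its 4 reversals follow from that shift. For the other 30 the cause was not tested. The summed scaling gave -0.0505 at Bmp2, -0.0313 at Bmp4, -0.12 at Chrdl2 and -0.19 at Bmper. Maximum signal gave -0.0547 at Bmp2, -0.0189 at Bmp4, 0.29 at Inhbb and -0.0163 at Nog. Mean signal per base gave -0.0731 at Bmp6, 0.17 at Bmp7, 0.0921 at Gdf6, 0.0584 at Gdf7, 0.0970 at Inhbb, -0.0422 at Nog and -0.0301 at Chrdl2. Regions called in at least 3 libraries (added for these genes after the data were seen) gave 0.22 at Bmp7, 0.0707 at Gdf7 and 0.18 at Inhbb. The 75 bp libraries gave -0.14 at Bmp2, 0.00202 at Gdf6 and 0.15 at Gdf7. With each library left out in turn, values ran from 0.0444 to 0.55 at Grem1, 0.25 to 0.39 at Chrd, 0.42 to 0.68 at Nog, 0.29 to 0.78 at Bmp6, -0.58 to -0.0284 at Gdf6, 0.16 to 0.28 at Bmp4, 0.0422 to 0.23 at Chrdl2, -0.18 to 0.51 at Bmp2, -0.29 to 0.23 at Bmp7, -0.36 to 0.15 at Gdf7, -0.26 to 0.13 at Inhbb and -0.13 to 0.32 at Bmper.

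The ligand percentage minus the antagonist percentage was negative on average under every alternative run. It moved by more than 1 SD to -5.72 points with the 16 other family ligands and secreted antagonists added (chosen after the data were seen; positive in KO replicate 2), to -22.5 points with 1047 peaks in each library and to -25.1 points with Lefty1, Lefty2 and Inha as antagonists. The KO minus WT difference for antagonists was 18.5 points with peaks above the library median only. Left out in turn, libraries gave -0.641 to 15.4 points for ligands (KO minus WT), 1.85 to 13.0 for antagonists and -36.8 to -32.9 for ligands minus antagonists. Genes marked in all WT and not all KO libraries numbered 2 with 1047 peaks, 0 with 2 of 3 libraries needed, and 0 to 5 with a library left out. The reverse count was 2 with 1047 peaks, 1 with 2 of 3 libraries needed, 2 in the 75 bp libraries and 1 to 10 with a library left out (1 without WT replicate 3, 10 without KO replicate 3). For these alternatives of both counts the share of protein coding genes was not counted. Of the 22 genes marked in at least 4 libraries, 8 were left with 1047 peaks. With maximum signals of 6 to 10 fragments in a typical peak, a promoter without a peak is not shown to lack the mark.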
